A study of Mus musculus with 10 samples.

Results

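The T helper and CD8 lineage transcription factors considered here were 9 genes, Tbx21, Eomes, Gata3, Rora, Zbtb7b, Runx1, Runx3, Tox and Id2, taken by name from the 33585 genes with values in each tumor-draining lymph node (TDLN). The rule that lists them uses no measured value, although it was written with earlier results of these data known. A mean of at least 1 FPKM (fragments scaled by transcript length and by the mapped fragments of the library) was reached by 8 of them, which were among the 13334 genes tested, and Rora fell below it. The nodes came from female BALB/c mice, 6 weeks old at the start, that carried 4T1 tumors, a mouse mammary carcinoma line, in the mammary fat pad. All 10 mice had the tumor treated with microwave ablation (MWA) on day 10 and the node taken on day 15. The MWA group of 5 mice then received PBS, and the MWA+2DG group of 5 mice received 2-deoxy-D-glucose (2DG), a glucose analogue that inhibits glycolysis, at 500 mg/kg every 2 days from the ablation on. Each mouse gave 1 library of the whole node, so every value is an average over T cells, B cells and all other cells of the node, and fewer cells of a type cannot be told apart from less RNA per cell.

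Lineage transcription factors fix which type a T cell becomes. In the thymus, ThPOK (encoded by Zbtb7b) and Runx3 oppose each other, the first holding cells in the CD4 helper lineage and the second in the CD8 lineage. In lymph nodes, T-bet (Tbx21) directs Th1 cells and Gata3 directs Th2 cells, and Eomes works beside T-bet in CD8 T cells and natural killer (NK) cells. Rora takes part in Th17 cells and type 2 innate lymphoid cells, Runx1 in T cell development and quiescence, Tox in CD4 lineage development and in exhausted CD8 T cells, and Id2 blocks E proteins in effector and innate lymphoid cells.

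T and B cell transcripts marked the libraries as lymph node. Transcripts of 16 T cell identity genes summed to between 555 and 899 FPKM in the MWA mice and between 603 and 877 FPKM in the MWA+2DG mice. Read counts cannot be had from FPKM, and the depth behind each value is unknown. In both groups, replicates 1 and 2 stood apart from replicates 3 to 5. The leading principal component (36.4% of the variance) split the mice into these replicate sets, and 7 liver genes summed to between 22 and 27.3 FPKM in replicates 1 and 2 and to between 80.7 and 191 FPKM in replicates 3 to 5. The nodes of the sets therefore differed in more than the treatment, and each set held both groups. Exact permutation tests that exchanged labels only within the sets are given as the p within sets, with 0.0167 as the smallest possible value, against 0.00794 without this restriction.

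The factors spanned a wide range of levels. On the FPKM scale, which divides by transcript length, the median over the 10 mice was 23.5 for Id2, 14.7 for Zbtb7b, 6.53 for Runx3, 5.47 for Eomes, 4.08 for Tbx21, 3.61 for Tox, 2.99 for Gata3, 1.77 for Runx1 and 0.693 for Rora. Id2 lay above Zbtb7b, and Zbtb7b above Runx3, in 10 of 10 mice. The order between Runx3 and Eomes held in 9 mice, that between Eomes and Tbx21 in 7, that between Tbx21 and Tox in 5 and that between Tox and Gata3 in 7, so these neighbours were not separated by level. Gata3 lay above Runx1 and Runx1 above Rora in 10 of 10 mice. Id2 was above 83.6% of the tested genes by its median and Zbtb7b above 72.7%, while Runx1 was above 13.1%.

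On the log2(FPKM + 1) scale, Zbtb7b was the only factor that the study's rule called between the groups. That rule takes an unadjusted P below 0.05 and a log fold change beyond 0.25 in limma, read here as log2. The paper's methods state no pseudocount and no filter, so those used here were choices of the re-analysis. Zbtb7b measured 14, 12.6, 14.2, 11.2 and 13.2 FPKM in the MWA mice and 16.3, 15.8, 15.1, 16.4 and 15.2 FPKM in the MWA+2DG mice. Every MWA+2DG mouse lay above every MWA mouse. The mean was 13 ± 1.2 FPKM (SD, n = 5) in the MWA group and 15.8 ± 0.593 FPKM (SD, n = 5) in the MWA+2DG group. The log2 fold change was 0.26 (SE 0.07, limma P = 0.00477, exact permutation p = 0.00794). The exact permutation p was the smallest this design can give, and so was that of 0.0167 within sets. After Benjamini-Hochberg adjustment over all tested genes the limma p was 0.995. The log2 difference was 0.26 in replicates 1 and 2 and 0.26 in replicates 3 to 5. Thus 1 of the 8 tested factors was called, and it was higher with 2DG. Of all tested genes, 0.952% were called higher, 1.87% were called lower, and 0.802% had groups that did not overlap. These were 127 genes higher and 249 lower, and after rescaling of each library to 1000000 they were 328 higher and 159 lower. No gene passed an adjusted p of 0.05 in limma, in limma-trend or in the exact Wilcoxon rank-sum test, while 567 genes had an unadjusted limma P below 0.05. The exact Wilcoxon p cannot fall below 0.00794 in this design. A gene could pass its adjustment only if far more than 0.802% of genes had separate groups, so that test could hardly have passed any. The value of Zbtb7b stood close to the fold change threshold. It was 0.21 without MWA replicate 4 and 0.25 (0.249 before rounding) without MWA+2DG replicate 4, and in both cases the gene was no longer called.

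Gata3, the Th2 factor that T cells also need early in development, had the next smallest P. It measured 3.06, 2.40, 2.93, 2.38 and 2.85 FPKM in the MWA mice and 3.27, 3.18, 3.77, 3.73 and 2.76 FPKM in the MWA+2DG mice. In 4 of the 5 MWA+2DG mice Gata3 lay above every MWA mouse, and replicate 5 lay within the MWA range. The log2 fold change was 0.22 (SE 0.09, limma P = 0.0307, adjusted p = 0.995), under the 0.25 that the rule asks for, with an exact permutation p of 0.0397 and 0.0667 within sets. With a pseudocount of 0.1 it reached 0.28, with each library rescaled to 1000000 it reached 0.32, and without MWA replicate 1 or MWA+2DG replicate 5 it reached 0.25 or 0.27, and under these settings the gene was called.

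**Figure D1:**
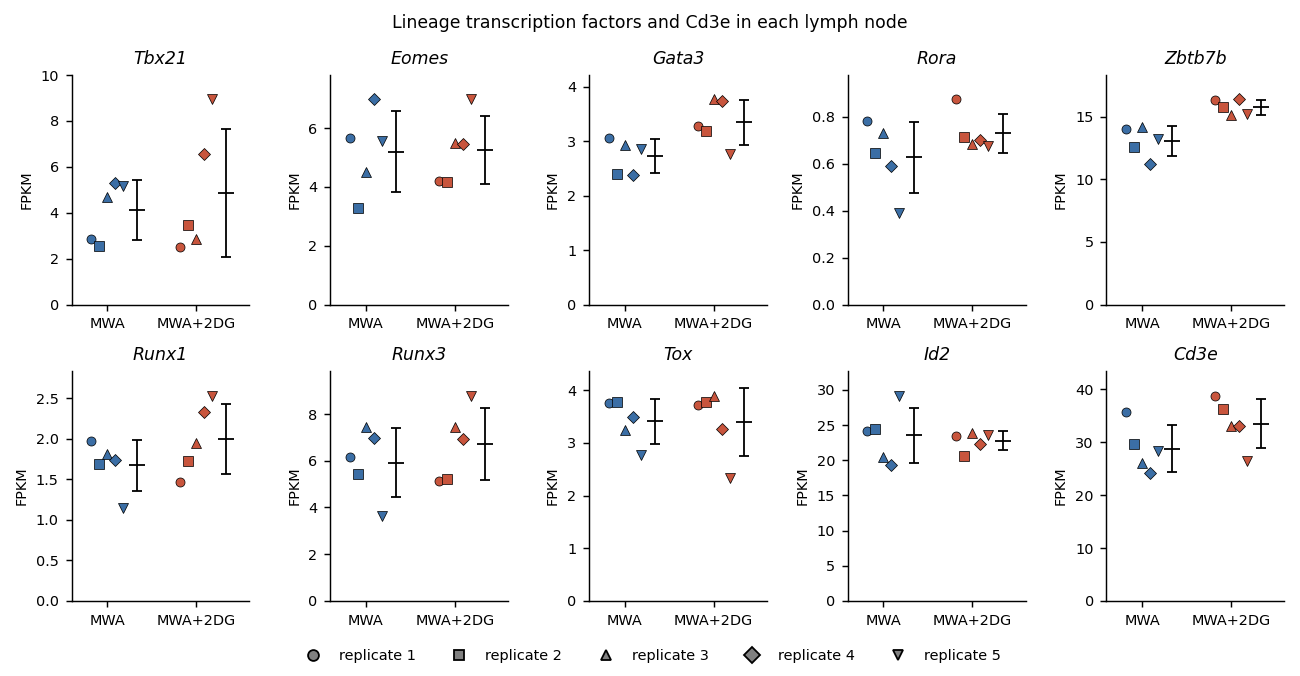
FPKM (vertical axes, from 0) of the 9 factors and Cd3e in each mouse, with 1 symbol shape per replicate number and the mean with its SD beside the 5 mice of each group. The groups of Zbtb7b do not overlap, whereas those of every other gene shown do.

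Tbx21 varied most between mice. It measured 2.87, 2.56, 4.69, 5.31 and 5.16 FPKM in the MWA mice and 2.52, 3.46, 2.85, 6.54 and 8.95 FPKM in the MWA+2DG mice. The highest mouse was 3.55 times the lowest, and MWA+2DG replicates 4 and 5 lay above all others while MWA+2DG replicate 1 was the lowest. The log2 fold change was 0.12 with a standard error of 0.30 (exact permutation p = 0.762), and it was -0.11 without MWA+2DG replicate 5. NK cells also express Tbx21. The 6 markers of NK cells and ILC1 that had values summed to 78.3, 78.4, 57.4, 69.5 and 108 FPKM in the MWA mice. In the MWA+2DG mice they summed to 55.8, 67.1, 54.1, 70.7 and 96.1 FPKM. These sums were largely Tyrobp, which myeloid cells share. With MWA+2DG the sum was highest in replicates 4 and 5, as Tbx21 was. With MWA it was higher in replicates 1 and 2, where Tbx21 was low, than in replicates 3 and 4. Without Tyrobp, left out after the values were seen, the other 5 summed to 5.15, 5.62, 7.03, 13.6 and 11.5 FPKM in the MWA mice and to 5.58, 5.82, 4.49, 7.87 and 18.2 FPKM in the MWA+2DG mice, highest in the mouse with the highest Tbx21. The part of NK cells in the level of Tbx21 was not tested.

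Eomes overlapped between the groups almost entirely. It measured 5.65, 3.27, 4.52, 6.97 and 5.57 FPKM with MWA and 4.21, 4.17, 5.49, 5.44 and 6.98 FPKM with MWA+2DG. The highest mouse of each group reached nearly the same level, and the log2 fold change was 0.03 (SE 0.17, exact permutation p = 0.992).

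Runx1 and Runx3 bind the same DNA element with the shared partner Cbfb. Runx3 measured 6.14, 5.42, 7.43, 6.99 and 3.64 FPKM with MWA and 5.14, 5.24, 7.46, 6.92 and 8.79 FPKM with MWA+2DG. Runx1 measured 1.97, 1.69, 1.81, 1.74 and 1.14 FPKM with MWA and 1.47, 1.72, 1.94, 2.33 and 2.53 FPKM with MWA+2DG. Both were lowest in MWA replicate 5 and highest in MWA+2DG replicate 5. The log2 fold change was 0.16 for Runx1 (SE 0.12, exact permutation p = 0.246) and 0.16 for Runx3 (SE 0.18, exact permutation p = 0.468). For both genes the difference had another sign in each replicate set, -0.13 for Runx1 and -0.13 for Runx3 in replicates 1 and 2 against 0.36 and 0.36 in replicates 3 to 5, and the difference between sets was not tested.

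The start regions of the factors were searched for DNA elements that RUNX, T-box, GATA and ROR factors bind. The E-box of the E proteins, which Id2 blocks, was searched too, and no element was searched for Zbtb7b or Tox. RefSeq windows on GRCm38.p6, 250 bases before to 50 bases after each start site, were found for 8 of the 9 factors, 11 windows in all, with none found for Tox. Both strands were read for the RUNX element TGTGGT (or its complement ACCACA), the T-box element TCACACC, the GATA element GATAA, the E-box CAGCTG and the ROR element AGGTCA. The RUNX element occurred in 3 of the 11 windows, the distal windows of Runx1 and Runx3 and the downstream window of Zbtb7b, and in 16.8% of all 32851 windows. It occurred at least 2 times in the distal windows of Runx1 and Runx3 and in 1.81% of all windows. The E-box, to which E proteins bind, occurred in 3 windows, those of Tbx21, Gata3 and Id2, and in 16.3% of all windows. The other motifs were not among the letters of the 11 windows, and occurred in 3.98% (T-box), 25.4% (GATA) and 16.3% (ROR) of all windows. The windows with the RUNX element are printed because Runx1 and Runx3 moved together and Zbtb7b was the factor called, with the element in capitals.
Runx1 distal, chr16:92826025-92826324, minus strand: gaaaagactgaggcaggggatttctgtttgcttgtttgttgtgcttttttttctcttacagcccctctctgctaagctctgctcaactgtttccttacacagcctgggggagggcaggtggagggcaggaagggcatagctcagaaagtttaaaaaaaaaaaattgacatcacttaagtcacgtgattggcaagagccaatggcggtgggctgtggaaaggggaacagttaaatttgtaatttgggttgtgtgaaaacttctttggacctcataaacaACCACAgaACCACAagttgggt
Runx3 distal, chr4:135120395-135120694, plus strand: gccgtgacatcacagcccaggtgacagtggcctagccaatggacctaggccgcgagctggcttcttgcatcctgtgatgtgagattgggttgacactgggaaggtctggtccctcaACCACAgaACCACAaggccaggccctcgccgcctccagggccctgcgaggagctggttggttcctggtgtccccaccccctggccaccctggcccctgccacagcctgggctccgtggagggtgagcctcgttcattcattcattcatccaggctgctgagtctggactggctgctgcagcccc
Zbtb7b downstream, chr3:89387622-89387921, minus strand: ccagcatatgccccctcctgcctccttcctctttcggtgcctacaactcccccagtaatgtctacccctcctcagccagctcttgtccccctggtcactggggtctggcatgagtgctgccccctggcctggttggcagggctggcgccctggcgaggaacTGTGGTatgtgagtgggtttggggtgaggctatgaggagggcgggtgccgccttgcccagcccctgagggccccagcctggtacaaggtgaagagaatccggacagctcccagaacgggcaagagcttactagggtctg

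The distal windows of Runx1 and Runx3 share a run of 18 bases, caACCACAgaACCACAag, which holds the element in tandem. The run begins 27 bases after the annotated start of Runx1 and 136 bases before that of Runx3. On either strand it was found in 4 of the 32851 windows, those of Runx1, Runx2, Runx3 and Gm16225. In the Zbtb7b window the element begins 89 bases before the start. A match of letters is a description of the window and not a measured binding site.

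Tox and Id2 showed no difference in mean between the groups beyond the spread of the mice. Tox measured 3.75, 3.78, 3.24, 3.50 and 2.77 FPKM with MWA and 3.73, 3.77, 3.90, 3.27 and 2.33 FPKM with MWA+2DG. Replicate 5 was the lowest mouse of both groups, and the log2 fold change was -0.01 (SE 0.12, exact permutation p = 0.929). Id2 measured 24.2, 24.5, 20.4, 19.4 and 29.2 FPKM with MWA and 23.5, 20.6, 23.9, 22.3 and 23.6 FPKM with MWA+2DG. The MWA+2DG mice all lay within the range of the MWA mice, and the log2 fold change was -0.03 (SE 0.11, exact permutation p = 0.754). Dendritic cells and innate lymphoid cells also express Id2. The 9 dendritic cell markers summed to between 142 and 290 FPKM with MWA and between 179 and 255 FPKM with MWA+2DG. The part of these cells in the level of Id2 was not tested.

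Rora, the lowest of the factors, was at 0.781, 0.645, 0.731, 0.590 and 0.390 FPKM with MWA and at 0.876, 0.715, 0.686, 0.700 and 0.675 FPKM with MWA+2DG. MWA+2DG replicate 1 lay above all other mice and MWA replicate 5 below. The log2 difference was 0.09 (exact permutation p = 0.246, and 0.167 within sets). The 8 markers of ILC2 and ILC3 summed to between 6.60 and 7.22 FPKM with MWA and between 5.67 and 7.86 FPKM with MWA+2DG, and Il17a was at 0 in all 10 mice.

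As a group, 6 of the 8 tested factors were above 0 in log2 fold change, and their median was 0.14. Over all tested genes the median was 0.01 and 52.6% were positive. The heatmap of deviations shows that the factors did not move as 1 block. In MWA+2DG replicate 5, Tbx21 was at its highest and Tox at its lowest.

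**Figure D2:**
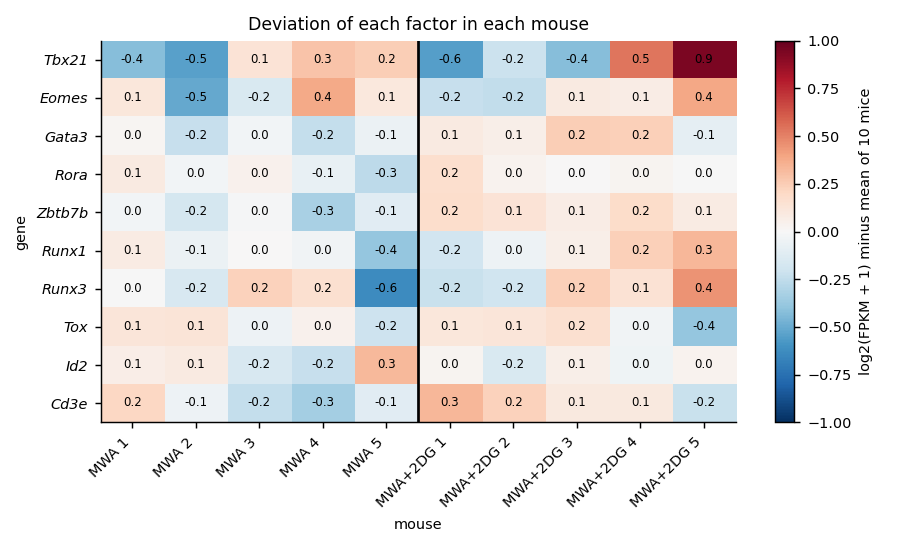
Deviation of log2(FPKM + 1) from the mean of the 10 mice (color and printed number) for each factor and Cd3e (rows) in each mouse (columns), with a line between the groups. Tbx21 and Tox stand on opposite sides in MWA+2DG replicate 5, and Runx1 and Runx3 stand on the same side in MWA replicate 5 and MWA+2DG replicate 5.

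To ask how much of these differences went with the amount of T cell RNA in the node, each factor was set against Cd3e, a subunit of the T cell receptor complex, in the same mouse. Cd3e measured 35.7, 29.6, 26, 24.2 and 28.4 FPKM with MWA and 38.8, 36.2, 33.1, 33 and 26.4 FPKM with MWA+2DG. The groups overlapped, and the log2 fold change of Cd3e was 0.21 (SE 0.12, exact permutation p = 0.127, and 0.05 within sets). Cd3e was called after rescaling to 1000000 (0.28) and without MWA replicate 1 or MWA+2DG replicate 5 (0.29 in both cases). The level of Zbtb7b relative to Cd3e, on the log2(FPKM + 1) scale, was -1.08 ± 0.171 (SD, n = 5) with MWA and -1.03 ± 0.176 (SD, n = 5) with MWA+2DG, a difference of 0.05 (SE 0.12, exact permutation p = 0.667). That of Gata3 differed by 0.01 (SE 0.13, exact permutation p = 0.897). Relative to Cd3e the differences of the other factors were -0.05 for Runx1, -0.05 for Runx3, -0.10 for Tbx21, -0.12 for Rora, -0.19 for Eomes, -0.22 for Tox and -0.24 for Id2. The smallest exact permutation p among them was 0.0635, for Tox (SE 0.12), of which 3 MWA+2DG mice lay below every MWA mouse. That of Id2 was 0.127 (SE 0.14).

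None of the 8 tested factors was called relative to Cd3e in limma, and none had an unadjusted P below 0.05. Limma-trend and the exact Wilcoxon test also called 0. Of all 13333 genes tested relative to Cd3e, 0.03% were called higher and 18.7% lower, 0 passed an adjusted p of 0.05 and 3.02% had groups that did not overlap. The share called lower depended on the reference, with 3.55% against the mean of Cd3d, Cd3e and Cd3g and 9.13% against the mean of the T cell identity genes, and 0 of the 8 factors were called against either. The median difference of the 8 factors was -0.07, against -0.21 over all tested genes, which is the rise of Cd3e subtracted from every gene. Tox was called lower relative to Cd3e under quantile normalization (-0.27) and without MWA replicate 1 (-0.27) or MWA replicate 5 (-0.28). Under these settings 3341 of 13333, 5268 of 13350 and 2140 of 13371 genes were also called lower. Id2 was called lower without MWA+2DG replicate 5 (-0.34), where 4264 of 13347 genes were called lower. With so many genes called lower, these calls do not set Tox or Id2 apart from other genes.

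**Figure D3:**
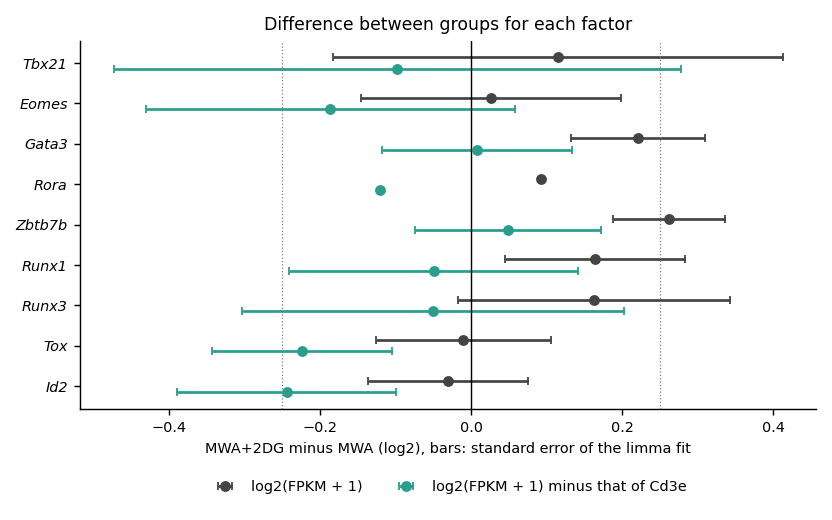
Difference between MWA+2DG and MWA (horizontal axis, log2 units) for each factor, before (grey) and after (green) subtraction of Cd3e in the same mouse, with bars for the standard error of the limma fit and dotted lines at the thresholds of 0.25 and -0.25. Zbtb7b passes 0.25 before subtraction and is at 0.05 after it, and Rora, tested as a single value, has no bar.

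The relation of each factor to Cd3e from mouse to mouse was computed over the 10 mice, 9 relations in all. Gata3 had a Pearson's r of 0.654 (permutation p = 0.0428) and a Spearman's rho of 0.709 (permutation p = 0.0259). Zbtb7b had an r of 0.677 (permutation p = 0.0309) and a rho of 0.576 (permutation p = 0.0890). After Benjamini-Hochberg adjustment over the 9 relations the permutation p of r was 0.162 for both. Without MWA replicate 4 and MWA+2DG replicate 1, the mice farthest from the Cd3e median, r was 0.534 for Gata3 (exact permutation p = 0.178) and 0.371 for Zbtb7b (exact permutation p = 0.359). The p of neither stayed below 0.05 with 8 mice, and r fell more for Zbtb7b than for Gata3. Within the 6 mice of replicates 3 to 5, r was 0.964 for Gata3 (exact permutation p = 0.00972, adjusted 0.0875) and 0.732 for Zbtb7b (exact permutation p = 0.0889, adjusted 0.4), and the 4 mice of the other set were too few. Tbx21 went the other way, with an r of -0.621 (permutation p = 0.0566) and a rho of -0.636 (permutation p = 0.0548), and an r of -0.362 in replicates 3 to 5 (exact permutation p = 0.503). The remaining 6 factors had r between -0.432 and 0.561. The highest of these was that of Tox (permutation p = 0.0901). For Tox, r was 0.713 without the mice farthest from the Cd3e median (exact permutation p = 0.0458, not adjusted). Within replicates 3 to 5 it was 0.354 (exact permutation p = 0.524).

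Among the 36 pairs of factors, 3 had a permutation p of r below 0.05 after adjustment over the pairs, against 4 without adjustment. Values of 1 mouse come from 1 library and share its scaling. Runx1 and Runx3 had an r of 0.877 (permutation p = 0.00104, adjusted 0.0187) and a rho of 0.806 (permutation p = 0.00685). Within replicates 3 to 5, r was 0.889 (exact permutation p = 0.0264), and without replicate 5 of each group it was 0.603 (exact permutation p = 0.105), so the relation rested in part on these mice. Gata3 and Zbtb7b had an r of 0.819 (permutation p = 0.00346, adjusted 0.0415) and a rho of 0.758 (permutation p = 0.0154). It was 0.867 without MWA+2DG replicates 3 and 4 (exact permutation p = 0.00513), 0.814 within replicates 3 to 5 (exact permutation p = 0.0542) and 0.620 after each group's mean was subtracted. Tbx21 and Tox had an r of -0.867 (permutation p = 0.0009, adjusted 0.0187) and a rho of -0.758 (permutation p = 0.0153). It was -0.782 without MWA+2DG replicates 4 and 5 (exact permutation p = 0.0112), -0.828 within replicates 3 to 5 (exact permutation p = 0.0472) and -0.870 after each group's mean was subtracted.

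**Figure D4:**
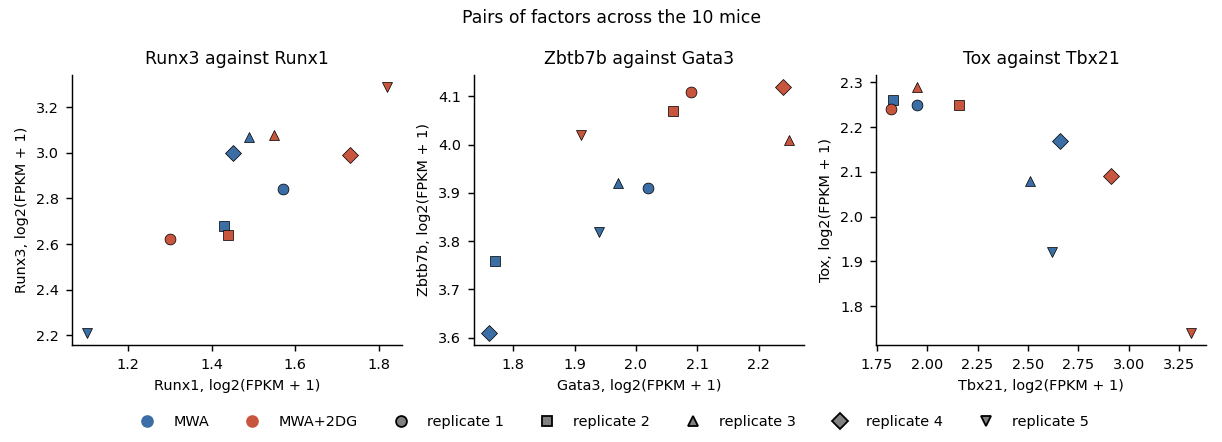
The 3 pairs of factors with an adjusted p below 0.05, each point 1 mouse, with log2(FPKM + 1) on both axes, color for the group and shape for the replicate number. Runx3 rises with Runx1 and Zbtb7b with Gata3, while Tox is lower in the mice with more Tbx21.

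Balances between opposing factors, and between a factor and the coreceptor of its lineage, were measured within each mouse as differences of log2(FPKM + 1). The 4 balances were compared between the groups by two-sided exact permutation tests. None of them differed beyond the spread of the mice. Zbtb7b relative to Cd4, the coreceptor of helper T cells, was -1.26, -1.23, -1.05, -1.16 and -0.85 in the MWA mice and -1.11, -1.13, -1.12, -1.15 and -0.90 in the MWA+2DG mice. Replicate 5 was the highest of both groups. The groups differed by 0.03 (exact permutation p = 0.714), with a 95% interval from -0.18 to 0.22 by inversion of the permutation test. Runx3 relative to Cd8a, the coreceptor of CD8 T cells, was -2.50, -2.15, -1.64, -2.12 and -2.66 in the MWA mice and -2.68, -2.63, -2.23, -2.25 and -1.89 in the MWA+2DG mice. The groups overlapped and differed by -0.12 (exact permutation p = 0.595, interval -0.59 to 0.41). Zbtb7b relative to Runx3 was 1.07, 1.08, 0.85, 0.61 and 1.61 with MWA and 1.49, 1.43, 0.93, 1.13 and 0.72 with MWA+2DG. Zbtb7b was the higher of the pair in all 10 mice, and the groups differed by 0.10 (exact permutation p = 0.667, interval -0.41 to 0.62). Tbx21 relative to Gata3 was -0.07, 0.07, 0.54, 0.90 and 0.68 with MWA and -0.28, 0.09, -0.31, 0.67 and 1.40 with MWA+2DG. The MWA+2DG mice held both the lowest and the highest value, and the groups differed by -0.11 (exact permutation p = 0.770, interval -0.95 to 0.75). These intervals are wide, and a p above 0.05 does not show that the balances were equal.

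**Figure D5:**
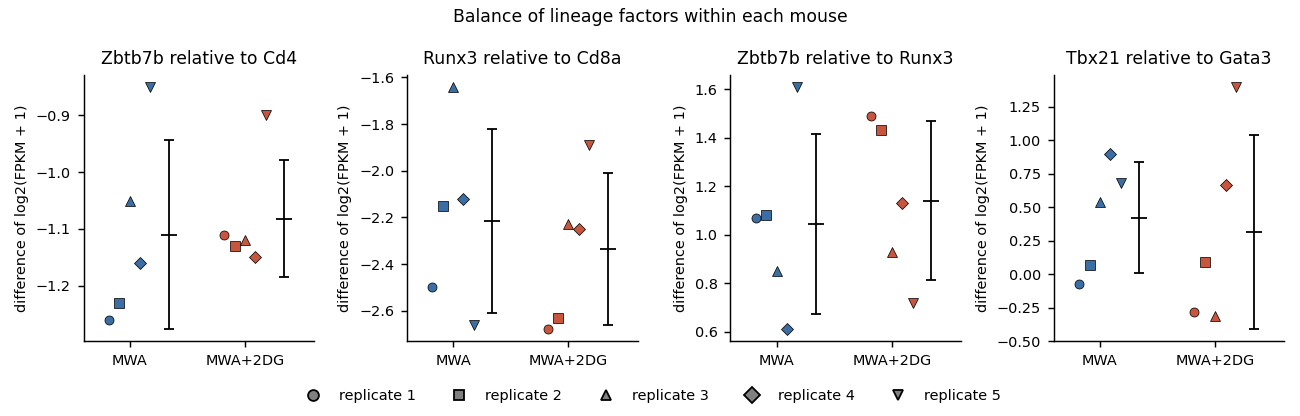
The 4 balances in each mouse (vertical axes, differences of log2(FPKM + 1), not starting at 0), with 1 symbol shape per replicate number and the mean with its SD beside each group. The groups overlap in all 4 panels, and the spread of Tbx21 relative to Gata3 is wider with MWA+2DG (SD 0.725) than with MWA (SD 0.412).

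Genes linked to the factors gave few calls. The coreceptors and other CD4 and CD8 lineage genes gave 1 called gene of 6, Cd8a, which was higher with 2DG. Cd8a measured 39.3, 27.6, 25.2, 33.8 and 28.3 FPKM with MWA and 38.4, 37.7, 38.6, 36.6 and 35.3 FPKM with MWA+2DG. The MWA+2DG mice lay close together and within the MWA range, and the log2 fold change was 0.28 (SE 0.11, limma P = 0.0267, exact permutation p = 0.0556). Cd8a was no longer called in the Wilcoxon test, or in limma without MWA replicate 2, 3 or 5 or MWA+2DG replicate 1 or 3, where its log2 fold change ranged from 0.22 to 0.27. Cd4 had a log2 fold change of 0.23 (SE 0.11, exact permutation p = 0.0794), under the threshold. It was called after rescaling to 1000000 (0.30), with quantile normalization (0.26) and without MWA replicate 1 (0.30) or MWA+2DG replicate 5 (0.29). The median of the list was 0.20, and 5 of its 6 genes were positive.

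Of the 16 T cell identity genes, all 16 were positive, with a median log2 fold change of 0.17. Of 14 other helper lineage regulators, 12 were positive, with a median of 0.06, and Stat4, which passes on interleukin-12 signals to Th1 cells, was the 1 gene called. It was higher with 2DG by 0.29 (SE 0.09, exact permutation p = 0.0238), and by 0.24 without MWA+2DG replicate 1, where it was no longer called.

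The targets of the Th1 and Th2 factors gave no call in limma. Of 14 T-bet and Eomes target genes 12 were tested and 9 were positive, with a median of 0.16. The smallest limma P belonged to Il18r1, a receptor for interleukin-18 (log2 fold change 0.26, SE 0.13, exact permutation p = 0.0952), and Cxcr3, a chemokine receptor of Th1 and effector cells (0.29, SE 0.18, exact permutation p = 0.167). Il18r1 was called without MWA replicate 1 or 3 (0.31 in both cases) and with median ratio scaling (0.26), and Cxcr3 without MWA replicate 5 (0.39). Of 10 GATA3 target and Th2 genes 4 were tested and 1 was positive, with a median of -0.04. Il4, the Th2 cytokine, had a log2 fold change of -0.22 (SE 0.14, exact permutation p = 0.198), and -0.35 without MWA+2DG replicate 2, where it was called lower. Ccr4, a chemokine receptor of Th2 cells, had 0.16 (SE 0.21, exact permutation p = 0.524).

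Family relatives and binding partners of the factors were called in 0 of 17 tested genes, 8 of which were positive, with a median of -0.01. Zfpm1, a partner of GATA factors, led them by P (log2 fold change 0.20, SE 0.09, exact permutation p = 0.0635), followed by Zbtb7a, a relative of Zbtb7b (0.17, SE 0.11, exact permutation p = 0.183). Zfpm1 was called without MWA+2DG replicate 5 (0.26) and after rescaling to 1000000 (0.28). Of 12 Tox-linked inhibitory genes 11 were tested, 0 were called and 6 were positive, with a median of 0.01. Nr4a3, an orphan nuclear receptor induced by T cell receptor signals, had 0.14 (SE 0.14, exact permutation p = 0.429), and Havcr2, the inhibitory receptor Tim-3, had 0.11 (SE 0.11, exact permutation p = 0.365). Relative to Cd3e, 0 of the 79 tested genes of these lists were called higher and 6 (7.59%) were called lower, against 18.7% of all tested genes. Against the mean of Cd3d, Cd3e and Cd3g 1 of 80 (1.25%) was called lower, against 3.55% of all tested genes. The lists include the T cell identity genes, whose median relative to Cd3e was -0.05, against -0.21 over all tested genes. These shares therefore do not set the linked genes apart from other T cell genes.

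Other cells of the node were followed by their markers. The 8 B cell markers summed to between 1478 and 1659 FPKM with MWA and between 1364 and 1600 FPKM with MWA+2DG, and 0 of 8 were positive. Adipose markers reached 45.8 FPKM in MWA+2DG replicate 5 and 27.5 FPKM in MWA+2DG replicate 2, against at most 11.1 FPKM in the other mice. Epithelial and keratinocyte markers reached 14.7 FPKM in MWA+2DG replicate 5, against at most 7.66 FPKM elsewhere. That mouse also had the highest Tbx21, Eomes, Runx1 and Runx3, the lowest Tox and the lowest Cd3e of the MWA+2DG group. Without it, 2 of the 8 tested factors were called, Zbtb7b and Gata3, both higher with 2DG. Among all 13348 genes tested without this mouse, 222 were called higher and 176 lower, against 127 and 249 with all mice. The part of the other tissue in these values was not tested.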

How the data were processed

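RNA from the TDLNs of 10 mice, 1 library per mouse, was sequenced by the authors after poly(A) selection, with strand marking and molecular identifiers in the adapters. The deposited values are FPKM, which the authors made with StringTie and ballgown, and the submitters' processing notes list cutadapt 1.9, HISAT2 2.0.4, UMI-tools, StringTie 1.3.4d and the build mm9. FPKM holds no counts, so depth and counting error are unknown. No step of whole reads could be seen in low values.

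Ensembl identifiers were matched to symbols (33541 of 33643). For 57 symbols with several identifiers the values were added. Genes averaging 1 FPKM or more were fitted by limma 3.58.1 (R 4.3.3) on the log2(FPKM + 1) scale, which understates fold changes of weakly expressed genes. No covariate was used, and the fit was made before and after subtraction of Cd3e. Differences in single values were judged by two-sided exact permutation tests over 252 regroupings, or 120 within replicate sets, and correlations by 100000 permutations in Python 3.11.15. Tested on simulated data with 200 genes changed by 1 log2 unit, the fit recovered 180 of them among 13334 genes, and 177 among 13333 after subtraction of Cd3e. At the same adjusted p of 0.05 it also called 10 unchanged genes before and 37 after the subtraction. These counts come from a single simulated draw for each fit, with genes varied independently and Cd3e unchanged between groups. Whether the fit relative to Cd3e makes more false calls in general was not tested.

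The factors and gene lists were chosen with earlier results of these data known, and the replicate sets were found in the data. Named genes were the 9 factors, Cd3e, Cd4 and Cd8a, and of each other list the genes called by the study's rule or else the 2 of smallest P. Not every gene so selected is reported here. Of marker lists only sums and genes at 0 were named. The alternatives changed the pseudocount (0.1), the filter (none, or 5 FPKM), the scaling (each library to 1000000, median ratios, quantiles), the test (limma-trend, Wilcoxon), the T cell reference, or the terms (replicate number as a block, replicate set), or left out 1 mouse. Use of the molecular identifiers in the FPKM values is not stated in the sources at hand. Some Ensembl identifiers appear later than mm9, so the build and annotation behind the FPKM are unsure. Promoter windows came from RefSeq on GRCm38.p6 and are not tied to them.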

Additional observations from a re-analysis of the deposited data

Results flagged for a closer look

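A single mouse stood far from the other 4 of its group in 4 of the 70 groups of values examined, where chance flags about 1 group in 20. Values are on the log2(FPKM + 1) scale. Rora was at 0.91 in MWA+2DG replicate 1, against 0.74 to 0.78 in the other MWA+2DG mice. Rora relative to Cd3e was at -4.03 in MWA+2DG replicate 5, against -4.44 to -4.32 in the others. Zbtb7b relative to Cd4 was at -0.90 in MWA+2DG replicate 5, against -1.15 to -1.11 in the others. Il4 was at 1.52 in MWA+2DG replicate 2, against 0.76 to 0.94 in the others.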

How the results depend on the processing

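The count of factors called moved with the processing. It was 1 with log2(FPKM + 1), and 2 with a pseudocount of 0.1 or after rescaling each library to 1000000, where Gata3 was called beside Zbtb7b. Leaving out 1 mouse gave 0 to 2 calls, with 0 without MWA replicate 4 or MWA+2DG replicate 4. Relative to Cd3e the count was 0, 1 with quantile normalization, and 0 to 1 when 1 mouse was left out. Where 1 factor was called it was lower, and between 2140 and 5268 of all tested genes were called lower too. The median log2 fold change of the factors ranged from 0.07 to 0.23 over the leave-outs, and from -0.22 to 0.07 relative to Cd3e. Over the leave-outs the balances ranged from -0.015 to 0.094 for Zbtb7b relative to Cd4, from -0.23 to 0.023 for Runx3 relative to Cd8a, from -0.0090 to 0.24 for Zbtb7b relative to Runx3 and from -0.38 to 0.051 for Tbx21 relative to Gata3. All 4 therefore changed sign, and none passed an exact permutation p of 0.05.

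Directions of small differences also depended on single mice. The leave-outs ranged from -0.11 to 0.27 for Tbx21, from -0.10 to 0.12 for Eomes, from -0.065 to 0.086 for Tox and from -0.094 to 0.047 for Id2. Relative to Cd3e they ranged from -0.40 to 0.11 for Tbx21, from -0.039 to 0.067 for Gata3, from -0.019 to 0.11 for Zbtb7b, from -0.19 to 0.072 for Runx1 and from -0.22 to 0.080 for Runx3. After rescaling to 1000000, Tox turned to 0.043 and Id2 to 0.032. Relative to Cd3e, Gata3 turned to -0.036 with quantile normalization, Runx1 to 0.021 with a pseudocount of 0.1, and Runx1 and Runx3 to 0.0049 and 0.0040 against the mean of Cd3d, Cd3e and Cd3g. The cause was not tested.

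Rescaling also moved the balance of calls over all tested genes, from 127 higher and 249 lower to 328 higher and 159 lower, and the median of all tested genes from 0.01 to 0.07. Over the leave-outs, genes called higher ranged from 82 (without MWA replicate 5) to 222 (without MWA+2DG replicate 5) and those called lower from 176 to 315. The genes called lower relative to Cd3e ranged from 1265 to 5268 around 2499 (473 against the mean of Cd3d, Cd3e and Cd3g, 1218 against the T cell identity genes), and 507 genes passed an adjusted p of 0.05 without MWA replicate 1, against 0 otherwise. Before subtraction of Cd3e, 1 gene passed it without MWA replicate 2. Without a filter Rora was tested with the rest and was not called. The replicate numbers were not taken to pair the mice. Deviations of same-numbered mice from their group means correlated by 0.331, 0.501, 0.110, 0.0334 and 0.151, and not every mouse correlated best with its own number. These correlations were all positive, and with so few mice the check cannot exclude a pairing. With the replicate number as a block, 1 factor was called, Zbtb7b (0.26), and 0 relative to Cd3e, while the calls over all tested genes were 164 higher and 285 lower. The 4 balances kept their differences, 0.03, -0.12, 0.10 and -0.11, and none passed. Il18r1 (0.26) was called under the block. Relative to Cd3e, Id2 had an unadjusted limma P of 0.0350 under the block, but its difference of -0.24 did not reach the threshold. With the replicate set as a term the factor calls were 1 and 0. The correlations with Cd3e and between factors were not run under these alternatives. Depth limits nothing that can be stated, since FPKM values hold no counts.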
